A study of Mus musculus with 27 samples.

Results

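Acetylation of lysine 27 of histone H3 (H3K27ac) was compared between fetal and adult hematopoietic progenitor cells (HPC) of the mouse, as 2 lists of called peaks. The fetal list held 50858 peaks over 45 Mb and the adult list 63108 peaks over 71.8 Mb, together 113966 of the 901169 peaks in the 8 lists of the series. A peak was called shared where it overlapped a peak of the other age by 1 bp or more, and otherwise fetal-only or adult-only. This gave 19858 fetal-only and 31000 shared fetal peaks, and 36899 adult-only and 26209 shared adult peaks. Fetal HPC came from E16.5 (embryonic day) mice and adult HPC from 8 weeks of age, all on the B6 background, and no other allele or treatment is named for these groups. Each list pooled 3 libraries made by ChIPmentation, in which the Tn5 transposase tags chromatin while it is held by the antibody. The labels name neither the tissue of origin nor the surface markers used to isolate HPC at either age, so a difference between the ages cannot be told apart from one in tissue or in the mix of progenitors. With 1 pooled list per age there is no spread between replicates, and no test across samples was possible. The depth of the libraries is unknown. A place without a called peak may still carry the mark.

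H3K27ac is laid down by the acetyltransferases p300 and CBP and marks active promoters and active enhancers. H3K4me1 marks enhancers, active or poised, and the flanks of promoters, so an H3K27ac peak away from gene starts that also carries H3K4me1 has both marks of an active enhancer. Hematopoietic progenitors descend from stem cells and feed the myeloid, lymphoid, erythroid and megakaryocytic lineages, and the Lin28b and let-7 axis is known to separate fetal from adult blood formation.

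The promoters below are shown because acetylation over them was called at 1 age and not at the other. They span 250 bases before to 50 after a RefSeq transcript start (GRCm38.p6) and are written 5′ to 3′ along the gene. An H3K27ac peak of the fetal list lay over the Lin28b, Igf2bp2 and Igf2bp3 sequences and an adult peak over the H2-Q7, Cdkn2c and Cebpa sequences, with no peak of the other age in either case. Capitals mark matches, on either strand, to any of 12 short motifs.
Lin28b, chr10:45470152-45470451, minus strand: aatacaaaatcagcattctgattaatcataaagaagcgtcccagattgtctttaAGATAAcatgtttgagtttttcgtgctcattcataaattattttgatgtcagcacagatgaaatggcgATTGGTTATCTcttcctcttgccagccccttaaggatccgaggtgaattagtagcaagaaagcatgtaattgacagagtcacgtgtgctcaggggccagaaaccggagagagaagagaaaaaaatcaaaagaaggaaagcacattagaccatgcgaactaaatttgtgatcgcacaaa
Igf2bp2, chr16:22163250-22163549, minus strand: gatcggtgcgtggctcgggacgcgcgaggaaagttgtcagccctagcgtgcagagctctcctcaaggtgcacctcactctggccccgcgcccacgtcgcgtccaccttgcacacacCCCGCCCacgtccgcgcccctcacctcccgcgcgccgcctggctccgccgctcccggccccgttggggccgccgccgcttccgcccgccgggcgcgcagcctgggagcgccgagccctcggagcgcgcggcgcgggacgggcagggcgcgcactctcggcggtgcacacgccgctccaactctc
Igf2bp3, chr6:49214905-49215204, minus strand: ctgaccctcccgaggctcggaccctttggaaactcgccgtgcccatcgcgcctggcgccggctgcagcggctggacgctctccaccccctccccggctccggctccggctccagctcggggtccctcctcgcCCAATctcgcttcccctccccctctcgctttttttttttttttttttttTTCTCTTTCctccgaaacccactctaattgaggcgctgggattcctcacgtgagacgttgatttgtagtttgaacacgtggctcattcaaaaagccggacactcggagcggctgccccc
H2-Q7, chr17:35438905-35439204, plus strand: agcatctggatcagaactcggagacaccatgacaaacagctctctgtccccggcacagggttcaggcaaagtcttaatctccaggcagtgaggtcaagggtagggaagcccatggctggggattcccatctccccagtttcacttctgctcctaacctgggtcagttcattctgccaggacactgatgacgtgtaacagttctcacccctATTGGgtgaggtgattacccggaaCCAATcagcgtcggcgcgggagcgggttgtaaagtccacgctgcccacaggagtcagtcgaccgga
Cdkn2c, chr4:109666707-109667006, minus strand: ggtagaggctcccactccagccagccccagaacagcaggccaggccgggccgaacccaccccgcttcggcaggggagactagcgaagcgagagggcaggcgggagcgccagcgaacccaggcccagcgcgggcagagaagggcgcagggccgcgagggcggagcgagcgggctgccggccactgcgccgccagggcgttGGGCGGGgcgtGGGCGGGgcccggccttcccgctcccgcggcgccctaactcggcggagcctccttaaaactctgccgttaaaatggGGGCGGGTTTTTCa
Cebpa, chr7:35119043-35119342, plus strand: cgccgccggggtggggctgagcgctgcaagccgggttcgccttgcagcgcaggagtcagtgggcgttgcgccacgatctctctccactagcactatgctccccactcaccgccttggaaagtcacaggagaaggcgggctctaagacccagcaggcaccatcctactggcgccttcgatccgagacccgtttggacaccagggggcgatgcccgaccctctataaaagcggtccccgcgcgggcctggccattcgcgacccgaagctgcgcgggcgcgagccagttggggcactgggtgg

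The motifs marked above are the GATA motif AGATAA (2 matches at Lin28b), the NFY motif CCAAT (Lin28b, Igf2bp3 and 2 at H2-Q7), the SP/KLF motif GGGCGGG (1 at Igf2bp2 and 3 at Cdkn2c), the IRF motif GAAANNGAA (Igf2bp3) and the NF-kB motif GGGNNTTTC (Cdkn2c, where it overlaps an SP/KLF match). Of all 21263 promoter sequences of coding genes, 9.65% held AGATAA, 38.2% CCAAT, 33.9% GGGCGGG, 8.15% GAAANNGAA and 4.26% GGGNNTTTC, so each match is a description of these letters and not a bound site. The Cebpa sequence held none of the 12. Base composition differed widely among the fetal promoters: G and C made up 39.0% of the bases at Lin28b, with 8 CpG, against 76.7% and 47 CpG at Igf2bp2 and 60.3% and 25 CpG at Igf2bp3. Among the adult promoters, H2-Q7 had 56.0%, the Cdkn2c start shown 73.3% and Cebpa 67.3%. Another Cdkn2c start, not shown, also lay under an adult peak and no fetal one. Its sequence had 44% G and C, 8 CpG and 1 match each to CCAAT and to the C/EBP motif TTNNGCAA. Cdkn2c and Cebpa were taken outside the rule for named promoters, after their values were seen.

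Promoters were shared far more often than distal peaks, and the adult list held more peaks of its own than the fetal list in both places. A peak was counted as promoter when it lay within 1 kb of the start of a protein-coding gene and otherwise as distal. Of 11008 fetal promoter peaks, 339 were fetal-only (3.08%, 95% Wilson interval 2.77 to 3.42), against 19519 of 39850 distal peaks (49.0%, 48.5 to 49.5). Of 12295 adult promoter peaks, 2888 were adult-only (23.5%, 22.7 to 24.2), against 34011 of 50813 distal peaks (66.9%, 66.5 to 67.3). The adult share exceeded the fetal share by 20.4 percentage points at promoters (Newcombe interval 19.6 to 21.2) and by 18.0 points at distal peaks (17.3 to 18.6). These intervals cover counting error alone, and the adult list is the longer.

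**Figure D1:**
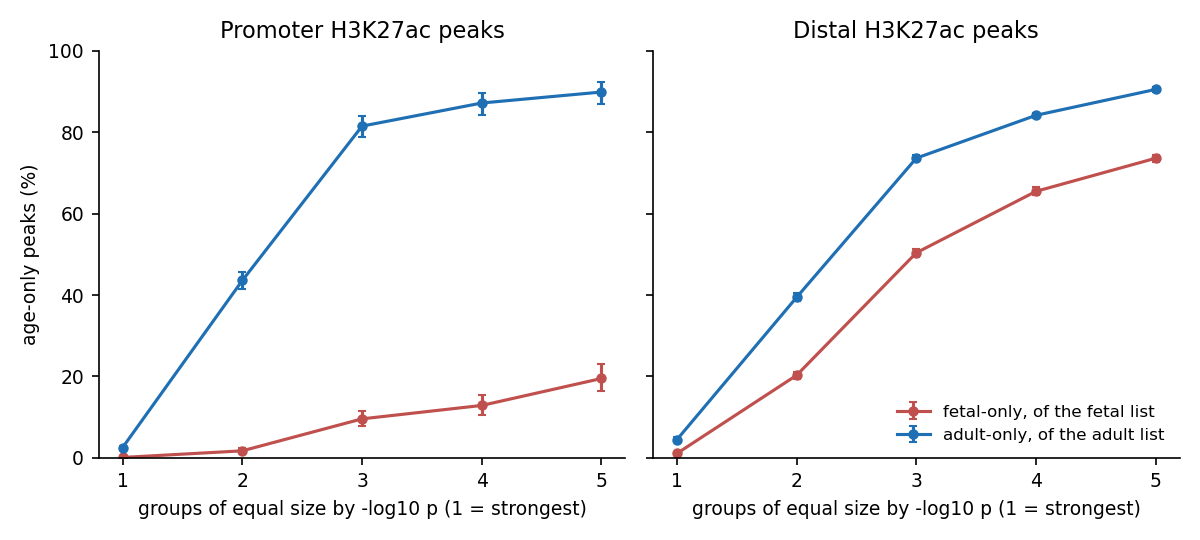
Share of peaks called at 1 age only (percent, with 95% Wilson intervals) in 5 groups of equal size per list, ordered by the authors' −log10 p with group 1 the strongest, for promoter peaks (left) and distal peaks (right). In the strongest of these 5 groups the fetal-only shares were 0.0945% and 1.07% and the adult-only shares 2.53% and 4.47%, and all 4 rose toward the weakest group.

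The share of peaks found at 1 age only rose from the strongest to the weakest peaks of each list. By number, adult-only promoter peaks did not gather among the weak ones, with 969 in group 2 and 452 in the weakest. The fetal-only share of promoter peaks went from 6 of 6350 (0.0945%) in the strongest of the 5 groups to 100 of 513 (19.5%) in the weakest, and that of distal peaks from 41 of 3822 (1.07%) to 7109 of 9659 (73.6%). For the adult list the shares went from 204 of 8062 (2.53%) to 452 of 503 (89.9%) at promoters and from 204 of 4560 (4.47%) to 10969 of 12119 (90.5%) at distal peaks. The strongest 20000 peaks of each list were also counted, with sharing still judged against the full list of the other age. Here 42 of 8684 fetal promoter peaks (0.484%) and 1518 of 11316 fetal distal peaks (13.4%) were fetal-only. In the adult list these were 769 of 9686 (7.94%) and 1829 of 10314 (17.7%). The order of adult above fetal and of distal above promoter was thus present among the strongest peaks too, with smaller shares. The list of the other age was not cut, so the difference in list length remains in these shares.

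Fetal-only distal peaks were also narrow. Their median width was 330 bp (quartiles 263 and 438) against 701 bp for shared fetal distal peaks, and 39.6% were under 300 bp wide. Adult-only distal peaks had a median width of 458 bp (316 to 703), against 1287 bp for shared adult ones, and 21.4% were under 300 bp. Narrow peaks made up 27% of the fetal-only distal peaks among the strongest 20000, against 1.69% of the shared ones there and 0.875% of the adult-only ones. The strongest fetal-only distal peaks by −log10 p were 277 bp wide (chr19:61265504-61265780, fold 5.92, 37043 bp from Csf2ra, a cytokine receptor subunit) and 217 bp wide (chr16:37308821-37309037, fold 8.03, inside Stxbp5l). Neither overlapped an HPC H3K4me1 peak of either age. In the adult list the strongest by −log10 p was 165 bp wide, with a fold of 2.90, near Gramd3. The next lay 4473 bp from Klf9, a glucocorticoid-responsive transcription factor (chr19:23133734-23136753, 3020 bp, fold 17.7), and carried HPC H3K4me1 at both ages. Leaving out peaks under 300 bp gave fetal-only shares of 2.20% at promoters and 40.3% at distal peaks, and adult-only shares of 22.6% and 64.6%. Whether the narrow peaks come from the mark or from the calling was not tested.

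Near the limit of the overlap rule, 240 shared fetal peaks (0.774%) and 418 shared adult peaks (1.59%) had under 10% of their width covered by the other age's peaks. On the other side, 3806 age-only fetal peaks (19.2%) and 6482 age-only adult peaks (17.6%) lay within 1 kb of a peak of the other age without touching it. The median distance from a fetal-only distal peak to the nearest adult peak was 12837 bp, and 54.6% lay more than 10 kb away. For adult-only distal peaks the median was 6045 bp, and 38% lay more than 10 kb from a fetal peak.

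H3K4me1 was not used to sort the peaks, and it was more frequent at adult-only than at fetal-only distal peaks. Of the 34011 adult-only distal peaks, 79.0% (78.6 to 79.4) overlapped an adult HPC H3K4me1 peak and 69.6% (69.1 to 70.1) a fetal one. Of the 19519 fetal-only distal peaks, 48.6% (47.9 to 49.3) overlapped a fetal HPC H3K4me1 peak and 32.3% (31.7 to 33.0) an adult one. The adult-only share was higher by 30.5 points for H3K4me1 of the same age (29.6 to 31.3) and by 37.2 points for H3K4me1 of the other age (36.4 to 38.1). Shared distal peaks overlapped HPC H3K4me1 in 95.8% to 97.1% of cases, whichever list and age was used. The fetal HPC H3K4me1 list is the longer of the 2, with 177310 peaks over 200.2 Mb against 126502 over 176 Mb for the adult list.

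**Figure D2:**
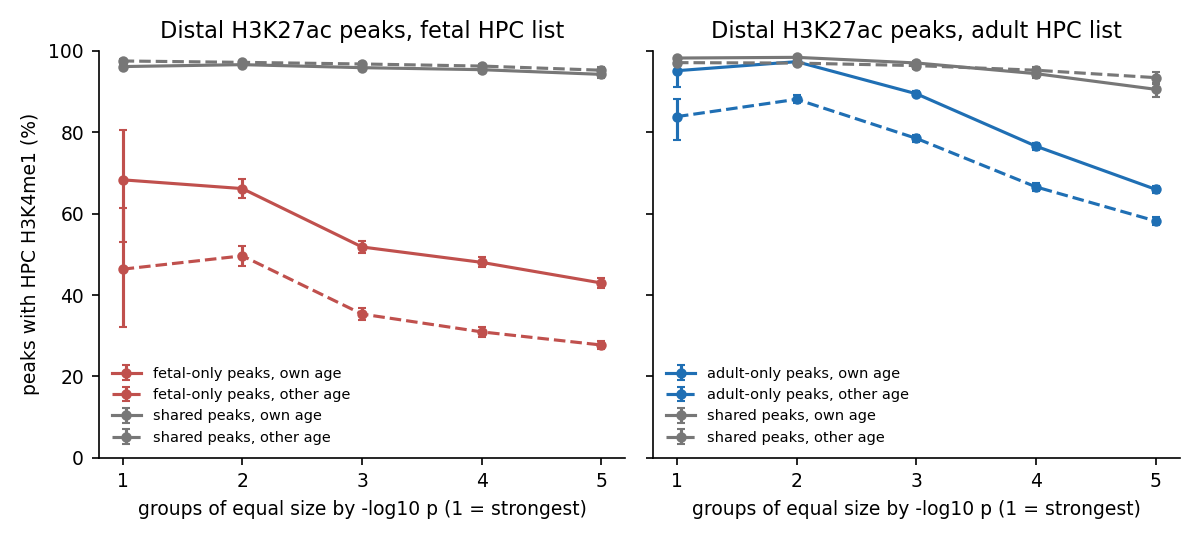
Share of distal H3K27ac peaks overlapping HPC H3K4me1 (percent, with 95% Wilson intervals) in 5 groups by −log10 p within the fetal list (left) and the adult list (right). Coloured lines are peaks of 1 age and grey lines shared peaks, solid for H3K4me1 of the same age as the peak and dashed for the other age. Shared peaks stay above 90% in each group, whereas fetal-only peaks go from 68.3% to 42.9% for their own age.

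Read by combination, 66.5% of adult-only distal peaks lay on H3K4me1 called at both ages, 12.5% on H3K4me1 called in adult HPC but not fetal HPC, and 17.9% on neither. For fetal-only distal peaks these were 31.5%, 17.0% (fetal but not adult) and 50.6%. H3K4me1 of either age in HSC (hematopoietic stem cells) left 44.7% of fetal-only and 16.0% of adult-only distal peaks with no H3K4me1 in any of the 4 lists. Among the strongest 20000, 88.9% of 1829 adult-only distal peaks had H3K4me1 at both ages and 2.19% had none in HPC, against 48.9% and 32.9% of 1518 fetal-only ones. So for most adult-only distal peaks, H3K4me1 was called in fetal HPC at the place where H3K27ac was called in adult HPC alone.

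Width moved with these shares. Of the fetal-only distal peaks at least 1 kb wide, 231 of 241 (95.9%) had fetal HPC H3K4me1 and 88.0% adult HPC H3K4me1. Of the 4427 adult-only ones of that width, 98.6% had adult and 91.3% fetal HPC H3K4me1. Under 300 bp the own-age shares were 37.8% for fetal-only and 59.8% for adult-only peaks, and 91.0% and 87.0% for shared peaks of the same narrow width. A wide fetal-only distal peak was thus nearly always on H3K4me1, and the gap between the ages lay among the narrower ones.

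In HSC, 50.7% of the fetal-only distal peaks of HPC overlapped fetal HSC H3K4me1 and 31.3% adult HSC H3K4me1. Adult-only ones overlapped adult HSC H3K4me1 in 70.5% and fetal HSC H3K4me1 in 61.3%. A second K27 set of HPC, titled H3K27me3 in the labels but with H3K27ac in their mark field, pooled 2 fetal and 3 adult libraries. It overlapped 1.09% (fetal) and 1.16% (adult) of fetal-only distal peaks, against 0.0246% and 0.00492% of shared fetal ones. At adult-only distal peaks it overlapped 0.141% (fetal) and 0.0206% (adult).

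At the level of genes, 10013 of 21887 protein-coding genes had an H3K27ac peak within 1 kb of a start at both ages and 9716 at neither. An adult peak with no fetal peak was found at 1996 genes (9.12%), and a fetal peak with no adult peak at 162 (0.740%). Of these, 1942 and 155 had a peak there that met no peak of the other age anywhere along its length. For 4395 genes no strand-aware start was at hand and either gene end was used, which took in 71 of the 162 fetal genes. With strand-aware starts alone the counts were 91 fetal and 1509 adult genes.

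Among genes with no adult peak within 1 kb of a start, the 6 promoters with the highest fold of a fetal-only peak belonged to Lin28b, Igf2bp2, Igf2bp3, Peg3, Igf2bp1 and Flrt3. The fold is the authors' enrichment of a peak over its background and orders peaks within 1 list. Lin28b, an RNA-binding protein that blocks maturation of let-7 microRNAs and promotes fetal-type blood formation, had a fetal peak of fold 14.3 and 3868 bp (chr10:45467081-45470948). The Lin28b map showed 6 fetal and 0 adult H3K27ac peaks from 30 kb before to 100 kb after its listed start. Igf2bp2 (fold 9.71, chr16:22160527-22164143), Igf2bp3 (8.37, chr6:49213840-49217946) and Igf2bp1 (7.11, chr11:96004148-96006373) encode RNA-binding proteins that stabilise growth-related transcripts and are themselves let-7 targets. Their fetal peaks were 2226 to 4107 bp wide, and no adult H3K27ac peak lay within 1 kb of their starts.

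H3K4me1 at these RNA-binding protein genes was called at both ages, at different distances from the start. Within 1 kb of the start of Igf2bp1, Igf2bp2 and Igf2bp3, adult HPC had H3K4me1 peaks with folds up to 3.47, 4.57 and 4.12, and fetal HPC had 0 peaks. The fetal H3K27ac peaks over these starts are wider than that window, and all 3 did overlap a fetal HPC H3K4me1 peak farther out. At Lin28b both ages had one, with folds up to 6.0 in the fetal and 3.57 in the adult list. The second K27 set had an adult peak within 1 kb of the start of Lin28b (fold 2.83) and of Igf2bp2 (3.56) and 0 fetal peaks at either. The fetal H3K27ac peaks over the starts of Igf2bp1 and Igf2bp3 overlapped an adult peak of that set outside the window, and no fetal one. Promoters of these genes that carried H3K27ac in fetal HPC therefore still had H3K4me1 called in adult HPC.

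**Figure D3:**
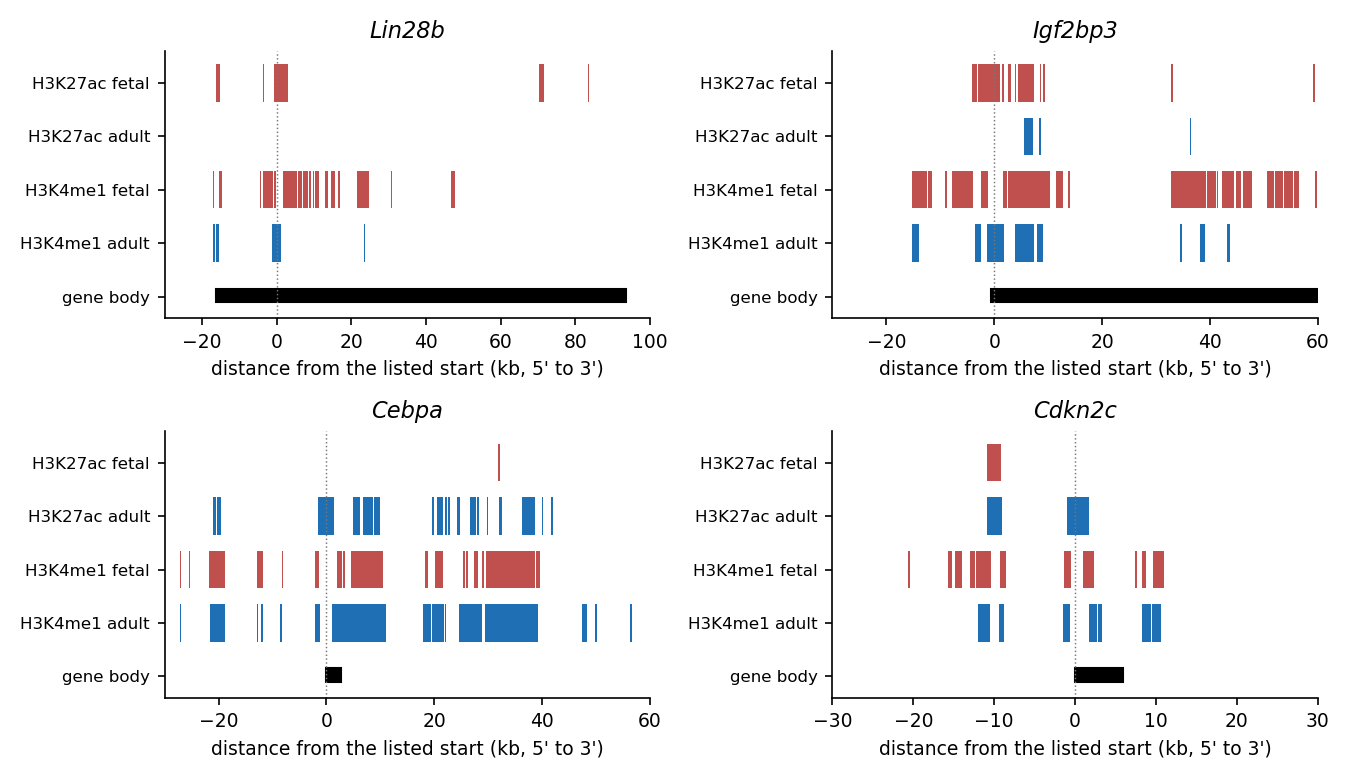
Called peaks of fetal (red) and adult (blue) HPC around Lin28b, Igf2bp3, Cebpa and Cdkn2c, by distance in kb from the listed transcript start in the direction of transcription, with the gene body in black. From 30 kb before to 60 kb after its start, Cebpa had 1 fetal and 22 adult H3K27ac peaks but 22 fetal and 15 adult H3K4me1 peaks. The Lin28b panel runs to 100 kb after the start and the Cdkn2c panel to 30 kb.

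Peg3, an imprinted zinc finger gene expressed from the paternal allele, had a fetal peak of fold 7.36 (chr7:6728863-6729577) within 1 kb of its start but not over the start itself, with no HPC H3K4me1 peak of either age. Flrt3, a cell-surface adhesion protein, had a fetal peak of fold 5.10 (chr2:140670597-140671521). The 162 fetal genes as a whole had less H3K4me1 at their promoters than the other acetylated genes: 64.2% (56.6 to 71.2) had a fetal HPC H3K4me1 peak within 1 kb and 61.7% an adult one. Of the 10013 genes acetylated at both ages, 94.2% and 96.2% had one.

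By the same rule, the 6 leading adult-only promoters belonged to H2-Q6, H2-Q7, B4galnt1, Inca1, Syde2 and Ralgps1, the last tied with Fndc3b at the same fold and −log10 p. H2-Q6 (fold 16.0, chr17:35424678-35425968) and H2-Q7 (13.9, chr17:35438454-35440138) encode Qa-2 type nonclassical class I antigens. They are near-identical neighbours, so the split of reads between them is uncertain. B4galnt1, a ganglioside-synthesising enzyme, had an adult peak of fold 13.8 (chr10:127164166-127166889), Inca1, an inhibitor of cyclin A1-bound CDK, one of 13.7 (chr11:70699821-70701208), Syde2, a GTPase-activating protein, one of 12.8 (chr3:145986930-145989292), and Ralgps1, a Ral exchange factor, one of 11.9 (chr2:33370170-33371643). Either gene end was counted as a start for Igf2bp1 and B4galnt1. The same holds for some genes named further on, among them Cebpe, Nlrc5, H2-Ab1, Cd74, Spi1, Arid3a and Ikzf2.

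Most genes with a promoter peak in adult HPC alone also had H3K4me1 near a start in fetal HPC. The adult-only promoter peaks themselves overlapped a fetal HPC H3K4me1 peak in 64.8% of 2888 cases, against 94.3% of shared adult promoter peaks. Within 1 kb of the start, H2-Q6, Inca1 and Ralgps1 had 0 fetal HPC H3K4me1 peaks, and H2-Q7, B4galnt1 and Syde2 had 1 each. Of the 1996 genes, 81.7% (80.0 to 83.3) had a fetal HPC H3K4me1 peak within 1 kb of a start and 93.7% (92.6 to 94.7) an adult one. The second K27 set had a fetal peak at 307 of them (15.4%, 13.9 to 17.0) and an adult peak at 114 (5.71%, 4.78 to 6.82), against 1.70% and 0.609% of the genes acetylated at both ages and 19.9% and 14.7% of those acetylated at neither. At 210 of the 1996 genes a fetal but no adult peak of the second set was called, led by Inca1 (fold of the adult H3K27ac peak 13.7), Cdkn2c (11.6), which encodes the CDK inhibitor p18, and Tnfaip2 (9.58), a tumour necrosis factor-induced gene. Cdkn2c and Tnfaip2 were chosen after their values were seen. At Cdkn2c the fetal second-set peak had a fold of 6.04.

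Promoter sequence differed between the groups in base composition. The ratio of observed to expected CpG had a median of 0.587 (quartiles 0.287 and 0.806) over 1932 adult-only starts, 0.795 (0.622 and 0.933) over 9819 starts acetylated at both ages, 0.230 (0.135 and 0.448) over 137 fetal-only starts and 0.241 over 9375 starts acetylated at neither. The share of G and C had medians of 60.3%, 61.3%, 47.7% and 49.3% in the same order. Adult-only starts thus lay between those acetylated at both ages and those at neither in CpG, and fetal-only starts were near the latter.

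Motifs rich in G and C were most frequent at starts acetylated at both ages and rare at fetal-only starts and at those acetylated at neither age. GGGCGGG was found in 43.2% of adult-only, 48.7% of both-age and 11.7% of fetal-only starts, and in 16.8% of starts acetylated at neither age. The ETS motif CCGGAAGT was found in 3.78%, 9.70%, 0.730% (1 of 137) and 0.725% in the same order, against 5.15% of all promoters. AGATAA was found in 6.68%, 5.97% and 17.5%, and in 14.0% of starts acetylated at neither age. The E-box CAGCTG was found in 20.9% of adult-only and 13.3% of both-age starts, a difference of 7.57 points (5.69 to 9.55), against 18.2% of fetal-only starts and 15.6% of all promoters. The AP-1 motif TGANTCA was found in 6.88% of adult-only and 4.32% of both-age starts, a difference of 2.57 points (1.44 to 3.84), and in 6.99% of all promoters. The parts of base composition and of factor binding in these shares were not tested, and no peak sequence away from starts was used here.

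Distal peaks were assigned to the nearest coding gene within 100 kb, which places 17172 fetal-only and 31622 adult-only distal peaks. More fetal-only than adult-only peaks were found at 3222 genes (14.7%) and the reverse at 6021 (27.5%). The gene with the largest excess of fetal-only peaks was Mecom, whose EVI1 product is needed by hematopoietic stem cells, with 45 fetal-only and 11 adult-only distal peaks, and 38 of the 45 had fetal HPC H3K4me1. Exoc4, an exocyst subunit, had 29 and 1, Utrn, the dystrophin relative utrophin, 42 and 15, Nbas, a protein of vesicle traffic, 26 and 1, Vav3, a guanine nucleotide exchange factor, 39 and 15, and Adk, adenosine kinase, 26 and 3. Ikzf2, the zinc finger factor Helios, had 30 fetal-only and 9 adult-only distal peaks, and its strongest fetal-only one was 2368 bp wide with a fold of 5.44 (chr1:69494916-69497283).

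Adult-only distal peaks gathered at Msi2, an RNA-binding protein of stem and progenitor cells, with 95 adult-only and 9 fetal-only peaks. Gse1, a partner of histone demethylase complexes, had 80 and 1, Cux1, a homeobox factor, 74 and 8, Zmiz1, a transcriptional coactivator, 57 and 1, Aff3, a nuclear protein of lymphoid cells, 57 and 3, and Prex1, a Rac exchange factor, 52 and 0. The counts are not adjusted for gene length and were compared within a gene.

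**Figure D4:**
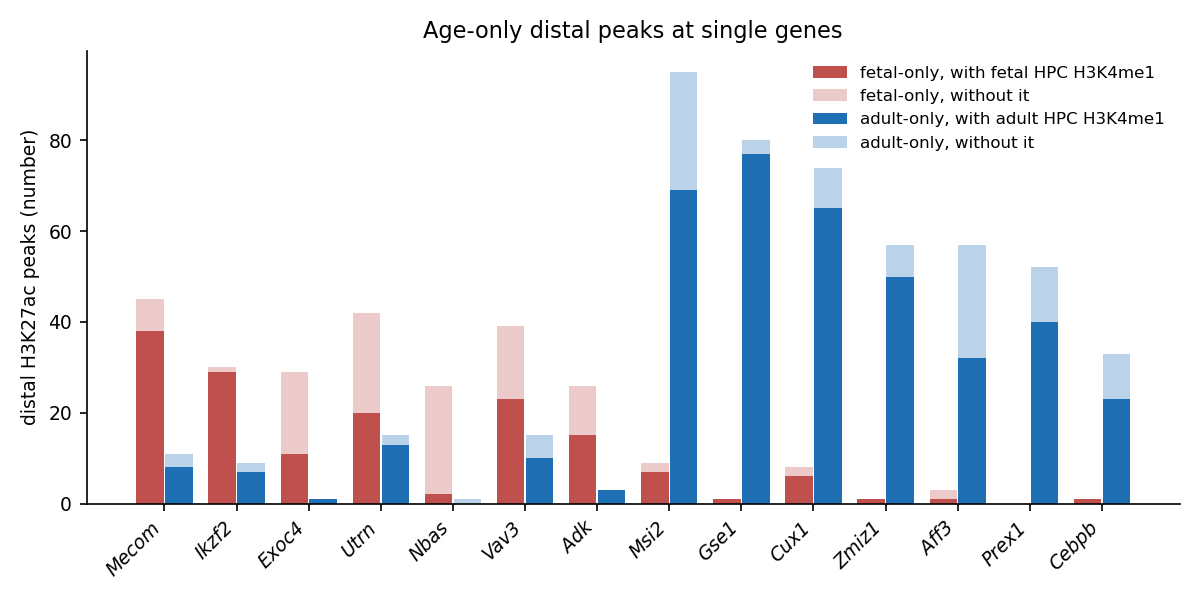
Number of distal H3K27ac peaks of 1 age at the genes with the largest excess of fetal-only (left) or adult-only (right) peaks, with Ikzf2 and Cebpb added from the gene lists. The full-colour part of a bar is the peaks with HPC H3K4me1 of the same age: 38 of 45 at Mecom and 29 of 30 at Ikzf2, against 2 of 26 at Nbas.

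Genes rich in fetal-only distal peaks varied in how many of these peaks had H3K4me1. Over all fetal-only distal peaks the share with H3K4me1 of the same age was 48.6%, and over all adult-only ones 79.0%. At Ikzf2 29 of 30 fetal-only distal peaks had fetal HPC H3K4me1, at Vav3 23 of 39, at Utrn 20 of 42, at Adk 15 of 26, at Exoc4 11 of 29 and at Nbas 2 of 26. At the leading adult genes the numbers were 77 of 80 at Gse1, 65 of 74 at Cux1, 50 of 57 at Zmiz1, 69 of 95 at Msi2, 40 of 52 at Prex1 and 32 of 57 at Aff3. Of 291 genes with at least 10 fetal-only distal peaks, 70 had H3K4me1 of the same age at 25% or less of them, and these genes had a median length of 283 kb. Another 71 had it at 75% or more, with a median length of 183 kb, and the largest group, 150 genes, lay between. Of 745 genes with at least 10 adult-only distal peaks, 1 (Gtf2i) fell in the low group, 249 between and 495 in the high group. The low fetal group was led by Nbas, Inpp4b (3 of 25), Pcsk5 (2 of 24), Herc2 (1 of 21) and Mycbp2 (1 of 21), and the high one by Mecom, Pde4d (27 of 34), Elmo1 (27 of 32), Foxp1 (28 of 32) and Ikzf2. Those not named before were chosen after their values were seen. Foxp1, a forkhead factor, also had 50 adult-only distal peaks, more than its 32 fetal-only ones.

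The fetal-only distal peaks with no HPC H3K4me1 at either age numbered 9884. Of these 66.3% lay inside a gene, 47.9% were under 300 bp wide and 77.0% lay more than 10 kb from any adult H3K27ac peak, and 5.06% were among the strongest 20000. Of the 9480 with fetal HPC H3K4me1, 71.6% lay inside a gene, 30.8% were under 300 bp, 31.3% lay more than 10 kb from an adult peak and 10.6% were among the strongest.

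Gene lists were read by the fetal-only share of their age-only distal peaks, which was 35.2% (34.8 to 35.6) over all coding genes and 43.4% among the strongest 20000 peaks of each list. The fetal programme, 14 genes of fetal stem and progenitor cells, stood at 61.0% (48.3 to 72.4), with 36 fetal-only and 23 adult-only distal peaks. Of its promoters 4 were acetylated in fetal HPC only (Lin28b, Igf2bp1, Igf2bp2 and Igf2bp3), 0 in adult HPC only and 6 at both ages, against 0.740%, 9.12% and 45.7% of all coding genes. Igf2bp3 had 8 fetal-only and 1 adult-only distal peaks, Lin28b 5 and 0, and Hmga2, a chromatin protein of fetal stem cells, 8 and 6 beside a promoter acetylated at both ages. Arid3a went the other way, with 1 and 4. More fetal-only than adult-only distal peaks were found at 7 of the 14 genes and the reverse at 4, against 14.7% and 27.5% of all genes. These genes were picked with earlier results of these data known, so their direction is not independent evidence. Imprinted growth genes held 15 fetal-only and 25 adult-only distal peaks (37.5%, 24.2 to 53.0), with Dlk1 at 4 and 7 and Rasgrf1 at 0 and 9. Grb10 at 4 and 1, Plagl1 at 3 and 1 and Peg3 at 1 and 0 leaned the other way. Fetal-only distal peaks were the more numerous at 3 of the 11 genes and adult-only ones at 3. Among the strongest 20000 peaks of each list the list held 4 and 3.

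**Figure D5:**
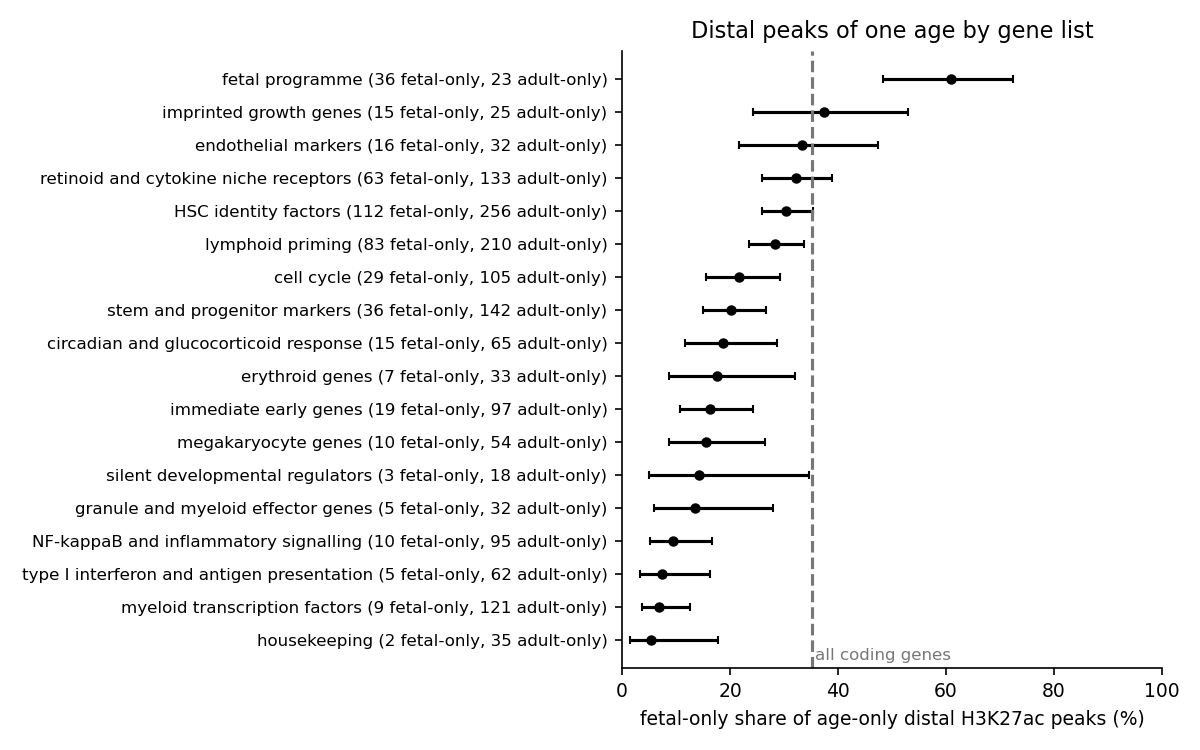
Fetal-only share of the distal H3K27ac peaks found at 1 age only (percent, with 95% Wilson intervals) for the gene lists with at least 20 such peaks, and the same share over all coding genes (dashed line). The fetal programme stands at 61.0%, above the 35.2% of all genes, and myeloid transcription factors at 6.92%.

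Myeloid transcription factors lay well below all genes. Their 13 genes held 9 fetal-only and 121 adult-only distal peaks (6.92%, 3.68 to 12.6), and 0 and 10 among the strongest 20000 of each list. Cebpb, a C/EBP factor of emergency granulopoiesis, had 1 fetal-only and 33 adult-only distal peaks, and Irf8, a factor of monocyte and dendritic cell fate, 0 and 26. Cebpa, the C/EBP factor needed for granulocyte-monocyte progenitors, had 0 and 15, and over its start an adult-only peak of fold 6.81 (chr7:35119091-35120772). Adult HPC had H3K4me1 within 1 kb of the Cebpa start (fold 7.39) and fetal HPC did not. Another adult-only promoter peak of Cebpa (chr7:35117711-35119005) did overlap a fetal HPC H3K4me1 peak, beyond that window. Both Cebpe and Id2 also had a promoter peak in adult HPC alone, which makes 3 of 13 promoters against 9.12% of all genes. Another 8 were acetylated at both ages and 0 in fetal HPC alone. More adult-only than fetal-only distal peaks were found at 10 of the 13 genes and the reverse at 0, against 27.5% and 14.7% of all genes. Granule and myeloid effector genes held 5 and 32 (13.5%, 5.91 to 28.0), with Fcnb, a ficolin, at 0 and 9 and Itgam at 1 and 6.

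Distal peaks of 1 age at immune signalling genes were also mostly adult-only. Type I interferon and antigen presentation genes held 5 fetal-only and 62 adult-only distal peaks (7.46%, 3.23 to 16.3), although 23 of their 27 promoters were acetylated at both ages. The 3 with a promoter peak in adult HPC alone, against 9.12% of all genes, a share near that of the list, were Nlrc5, the activator of class I genes, H2-Ab1, a class II chain, and Cd74, the invariant chain. Their adult-only promoter peaks had folds up to 6.10, 9.29 and 3.41. Cd74 also had a stronger adult peak within 1 kb of a start, of fold 10.0, which was not among its adult-only promoter peaks. Irf1 had 0 and 13 distal peaks and Ly6e 0 and 10. NF-kB and inflammatory genes held 10 and 95 (9.52%, 5.26 to 16.6), and 6 of their 23 promoters were adult-only (Il1b, Il6, Cxcl2, Ptgs2, Socs3 and Bcl3), against 9.12% of all genes. Il1r1, the interleukin 1 receptor, had 1 and 16 distal peaks and Tnfrsf1b 0 and 11. Immediate early genes held 19 and 97 (16.4%, 10.7 to 24.2), led by Fos with 0 and 13 and Ier3 with 1 and 14, and 20 of their 21 promoters were acetylated at both ages.

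Stem cell and lymphoid genes were mixed. HSC identity factors held 112 fetal-only and 256 adult-only distal peaks (30.4%, 26.0 to 35.3), close to all genes, and 11 and 9 among the strongest. Mecom had 45 and 11 and Mllt3, a partner of elongation factors that maintains stem cells, 18 and 4. Runx1, a master factor of blood formation, had 6 and 50, Prdm16 7 and 36, Erg 5 and 32 and Kit, the stem cell factor receptor, 10 and 29. Lymphoid priming genes held 83 and 210 (28.3%, 23.5 to 33.7), and 12 and 7 among the strongest. Ikzf2 had 30 and 9, against Bcl11a, a factor of lymphoid development, with 12 and 47, Rora with 19 and 51, Notch1 with 0 and 21 and Dntt, the terminal transferase of lymphoid progenitors, with 0 and 13. The Dntt start carried an adult peak of fold 13.2 and no fetal peak within 1 kb. The adult-only promoter peaks assigned to Dntt numbered 0, so this adult peak was not classed as adult-only by the overlap rule.

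The remaining lists lay below all genes or close to them, apart from the Hox genes, with few peaks. Erythroid genes held 7 and 33 (17.5%), of which Zfpm1, the GATA cofactor FOG1, had 0 and 25, and megakaryocyte genes 10 and 54 (15.6%), with Vwf at 2 and 14 and Itgb3 at 1 and 11. Cell cycle genes held 29 and 105 (21.6%), with Cdk6 at 14 and 33, Ccnd3 at 0 and 20 and Ccnd1 at 0 and 17. Receptors for retinoids and niche cytokines held 63 and 133 (32.1%), with Itga4 at 14 and 4 and Cxcr4 at 2 and 20. Circadian and glucocorticoid response genes held 15 and 65 (18.8%), with Hlf at 3 and 19. Hox genes of clusters A and B held 2 and 2. Housekeeping genes, meant as a control, held 2 and 35 (5.41%, 1.5 to 17.7), of which Ywhaz had 2 and 22 and Actb 0 and 8, and 19 of their 20 promoters were acetylated at both ages. A low fetal-only share is therefore not particular to the myeloid and immune lists. Silent developmental regulators held 3 and 18, with 19 of 20 promoters acetylated at neither age.

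The HPC label was checked against markers. Of 10 stem and progenitor genes, 9 had a promoter peak at both ages (Kit, Cd34, Gata2, Myb, Runx1, Spi1, Flt3, Ptprc and Cd48), and Lmo2 in adult HPC alone. Of 6 hepatocyte genes, 0 had a promoter peak at either age. Among 5 endothelial genes, Pecam1, Tek and Emcn had one at both ages and Cdh5 in adult HPC alone. Among 6 genes each of other cells, peaks at both ages were found at Cd79b for B cells, at Lck and Klrb1c for T and NK cells, at Cd68 for macrophages and at 0 stroma genes. Peaks in adult HPC alone were found at Zap70 for T and NK cells, Csf1r for macrophages and Pdgfrb for stroma. Fetal-only and adult-only distal peaks numbered 16 and 32 at the endothelial genes, 5 and 6 at the B cell genes, 0 and 7 at the T and NK cell genes, 5 and 12 at the macrophage genes, 4 and 9 at the stroma genes and 1 and 7 at the hepatocyte genes. Their part in the lists above was not tested.

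The shared peaks are described by their fetal values. The 3 strongest shared promoter peaks by fetal −log10 p were at Eapp (fold 57.6), Unk (47.7) and Cmas (44.9). The 3 strongest shared distal peaks were assigned to Sirt4 (fold 55.4), Arhgap5 (53.3) and Tex14 (48.3). All 6 overlapped H3K4me1 peaks in HPC and HSC at both ages and none of the second K27 set.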

How the data were processed

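H3K27ac, H3K4me1 and the second K27 set were profiled in HPC and H3K4me1 in HSC. The submitters' processing notes name Novoalign for alignment, MACS2 for peak calling and mm10 (GRCm38) as the build. What is not given in the sources used here is the tools' versions, the threshold, the filter and the use of the inputs. The authors deposited 1 filtered peak list per group, pooled over its libraries. Each deposited peak has a fold over background (a ratio) and a −log10 p and −log10 q, as MACS2 writes them, used here within a list only.

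Overlaps, the nearest start and the nearest gene were computed with Python 3.11.15, numpy 2.4.6 and pandas 2.3.3 and tested on simulated data. Starts of 17492 coding genes came from RefSeq promoter sequences (GRCm38.p6), and both ends were used for 4395 others. Wilson and Newcombe 95% intervals came from statsmodels 0.14.6 and direct formulas. Of 335 names in 24 gene lists, 332 matched the gene table.

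Members and lists were chosen with earlier results of these data known. Named genes were, per direction, the 6 with the highest fold of an age-only promoter peak and no peak of the other age within 1 kb of a start, the 6 with the largest excess of age-only distal peaks, up to 3 per list, and the strongest age-only and shared peaks. Other list members named were chosen after their values were seen, and not every list member is reported here. Alternatives changed the peak threshold, list length, overlap rule, promoter window, width, start set and H3K4me1 rule.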

Additional observations from a re-analysis of the deposited data

How the results depend on the processing

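No paired analysis was possible because each peak list pools the libraries of its group. No replicate could be left out for the same reason. Values are given as the fetal-only share of promoter peaks, the fetal-only share of distal peaks, adult HPC H3K4me1 at fetal-only distal peaks, the adult-only shares of promoter and of distal peaks, and fetal HPC H3K4me1 at adult-only distal peaks. The strongest 20000 peaks, judged against the full list of the other age, gave 0.484%, 13.4%, 49.5%, 7.94%, 17.7% and 89.0%. A −log10 q of at least 5 gave 2.65%, 44.1%, 36.2%, 22.6%, 63.9% and 75%. Sharing by cover of at least 50% of the peak gave 4.74%, 54.0%, 38%, 33.7%, 77.8% and 73.4%, and sharing within 1 kb gave 1.95%, 39.7%, 21.9%, 20.5%, 54.9% and 65.8%. Leaving out peaks under 300 bp, chosen after seeing the data, gave 2.20%, 40.3%, 39.8%, 22.6%, 64.6% and 74.9%. With lists of equal length the last 5 were 51.0%, 34.5%, 20.8%, 59.8% and 74.8%. A promoter window of 2.5 kb gave 7.91%, 49.8%, 30.8% and 30.3% for the first 4. Requiring the summit inside H3K4me1, added later, gave 28.7% at fetal-only and 61.4% at adult-only distal peaks. Strand-aware starts alone, added later, gave promoter shares of 2.43% and 21.3% and 91 fetal genes. Under each of these alternatives the adult-only share was above the fetal-only share and H3K4me1 of the other age was more frequent at adult-only peaks, where the setting gives both. Of 56 values, 12 moved by less than their interval or, for gene counts, less than 1.5 times. Among gene list and motif shares restricted to the strongest 20000 peaks, 29 moved and 30 did not. The cause of these shifts was not tested. The fetal-only share at HSC identity factors went from 30.4% to 55.0% and at lymphoid priming genes from 28.3% to 63.2%, with intervals of 34.2 to 74.2 and 41.0 to 80.9, beside 43.4% for all genes.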
